A study of Mus musculus with 8 samples.

Results

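In fibroblasts on day 5 of reprogramming, 6741 genomic regions held a NANOG peak in both arms of the experiment and a BRG1 peak in neither. They were chosen by the readout itself. The FLAG and BRG1 peaks of both arms were merged wherever they overlapped or touched, which gave 93352 regions, and a region was kept when it held a FLAG peak from each arm and no BRG1 peak from either. The 6741 regions made up 15.2% of the 44464 regions with FLAG in both arms (95% Wilson interval 14.8 to 15.5) and 7.22% of all regions. The count rests on the size of the BRG1 lists: with the 30859 highest-scoring BRG1 peaks from each arm, 13055 regions met the rule. The presence of FLAG and the absence of BRG1 are therefore selection criteria and no findings, and the FLAG values below are a description of what was selected. The histone marks, the position of the regions and their sequence played no part in the choice.

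The cells were mouse embryonic fibroblasts (MEFs), which per the methods carried an Oct4-GFP reporter (OG2) and were infected with retroviral vectors. In the NanogWT arm, labelled Nanog+Oct4, they received Oct4 together with unmodified Nanog, and in the NanogBiD arm, labelled NanogN70+Oct4, they received Oct4 together with Nanog that carries the BRG1-interacting domain (BiD) of SS18 at its N-terminus. Both arms thus carried exogenous Oct4, and no group without Nanog was analysed here. In each arm 4 targets were profiled by CUT&Tag, in which an antibody directs the Tn5 transposase to its target so that the DNA next to it is cut and sequenced: the FLAG tag on NANOG, BRG1 (Smarca4), H3K27ac and H3K4me1. Each of the 8 groups is 1 list of peaks called on merged replicates, so no spread between replicates can be had and no test was made. The intervals given here are 95% intervals that cover counting error over regions only, and neighbouring regions are not independent of each other. Vectors of this kind reach cells unevenly, and the lists hold no information on which cells carried the factors.

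The lists differed in size, which bears on every comparison between the arms. They held 58940 FLAG peaks in NanogWT and 74782 in NanogBiD, 30859 and 53748 BRG1 peaks, 35452 and 42598 H3K27ac peaks, and 72242 and 57156 H3K4me1 peaks, respectively. The depth of the libraries is unknown, and the summit heights, which count the overlapping tags at the top of a peak, are not scaled to depth. As a check of the labelled cell type, H3K27ac peaks lay at the promoters of 7 of 8 fibroblast marker genes in both arms, including Col1a1, Thy1 and Vim, the exception being Prrx1. Among 6 pluripotent cell markers, none had such a peak in NanogWT and 1, Dppa3, had one in NanogBiD.

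NANOG is a homeodomain protein of the pluripotency network, which together with OCT4 and SOX2 binds enhancers of embryonic stem cells. BRG1 is the ATPase of the BAF complex, which slides and evicts nucleosomes and so opens chromatin. H3K4me1 marks enhancers whether or not they are active, while H3K27ac marks active enhancers and promoters. A site with NANOG but without BRG1 is thus one where the factor was recovered and the remodeller that the fusion is designed to bring along was not. Absence of a BRG1 peak means that no peak passed the caller's threshold in that list, not that the protein was absent.

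The sequences around the FLAG summits are shown first for the tallest distal region, and then for the tallest regions in which a motif lay at the summit of both arms. Each is the forward strand of mm10 (GRCm38) from 50 bp before to 50 bp after the NanogWT FLAG summit, with matches to any searched motif of at least 7 letters in capitals. The octamer is the site bound by OCT4 and its relatives, and CTCF is an insulator protein with a long recognition site. Only 3 of the regions had a CTCF match at both summits, and all of them are shown.

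Tgfbr3 intron, chr5:107172544-107172644: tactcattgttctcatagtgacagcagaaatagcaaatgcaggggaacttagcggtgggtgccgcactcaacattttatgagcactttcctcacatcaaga
Octamer, intergenic 110 kb from Rnd3, chr2:51038850-51038950: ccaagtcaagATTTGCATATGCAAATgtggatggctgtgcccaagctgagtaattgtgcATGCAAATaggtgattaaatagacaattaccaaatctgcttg
Octamer, Pdzrn4 intron, chr15:92629451-92629551: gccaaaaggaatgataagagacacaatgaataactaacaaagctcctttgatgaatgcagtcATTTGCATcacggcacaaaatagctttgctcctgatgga
CTCF, Atrnl1 intron, chr19:57916413-57916513: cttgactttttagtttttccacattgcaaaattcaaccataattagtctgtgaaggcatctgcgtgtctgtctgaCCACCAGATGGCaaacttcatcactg
CTCF, intergenic near Ninj1, chr13:49173390-49173490: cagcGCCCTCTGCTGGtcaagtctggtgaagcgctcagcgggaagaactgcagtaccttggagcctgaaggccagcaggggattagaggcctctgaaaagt
CTCF, Kpna7 intron, chr5:145069843-145069943: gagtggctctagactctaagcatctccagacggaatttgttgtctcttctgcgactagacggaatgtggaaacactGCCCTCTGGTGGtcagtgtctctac

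No motif of at least 7 letters was found in the windows of the 3 tallest distal regions. Of the 3 tallest octamer regions 2 are shown. The one on chromosome 2 reached 18 FLAG tags in NanogWT and 36 in NanogBiD. Its window holds the octamer on both strands, the first stretch of capitals being 1 copy of each strand end to end, and once more further on. Neither arm had a peak of either mark there. The Pdzrn4 region reached 18 tags in each arm, with H3K4me1 in both (13 tags in NanogWT and 16 in NanogBiD) and no H3K27ac. Of the 3 CTCF regions, those in Atrnl1 and Kpna7 held H3K4me1 in NanogBiD only, at 15 and 13 tags, the Kpna7 region held H3K27ac in NanogBiD only as well (11 tags), and the one near Ninj1 held both marks in both arms.

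FLAG heights of the selected regions were low. The highest summit of a region ran from 6 to 60 tags in NanogWT, with a median of 12, and from 7 to 41 tags in NanogBiD, with the same median. For comparison, the medians were 20 and 21 tags at the 22084 regions with FLAG and BRG1 in both arms, and 14 and 18 tags at the 14212 regions with FLAG in both arms and BRG1 in NanogBiD only. These 2 classes are called the common BRG1 class and the NanogBiD BRG1 class below. By the lower of its 2 FLAG heights, 2368 regions without BRG1 lay under 10 tags, 3650 at 10 to 14, 600 at 15 to 19, 119 at 20 to 29 and 4 at 30 or more. Seen from the other side, BRG1 was missing from 2368 of the 5926 shared FLAG regions under 10 tags, from 21.3% at 10 to 14 tags, from 6.11% at 15 to 19, from 1.44% at 20 to 29 and from 0.121% at 30 or more. The regions without BRG1 were thus concentrated at the low end of FLAG height. Their median width was 888 bp, against 1615 bp in the common BRG1 class. Nothing is read from this gap, since regions with BRG1 were merged with their BRG1 peaks, which can add width. Marks were counted over the whole region, so wider classes had more room for a mark peak to overlap.

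**Figure D1:**
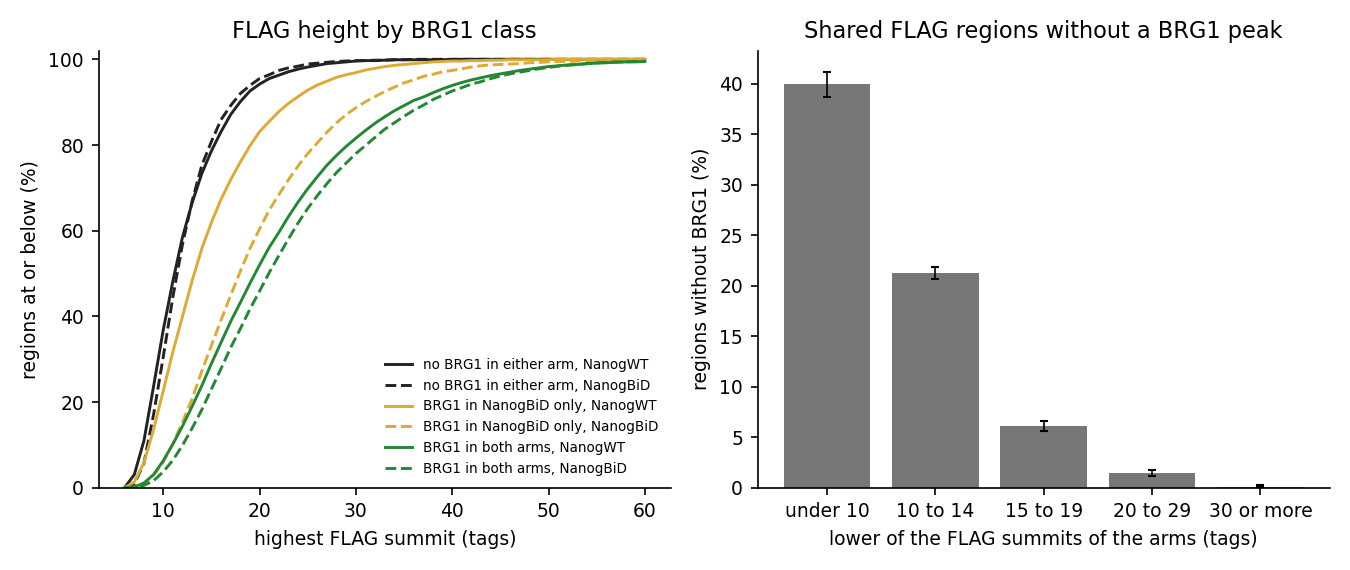
Left, cumulative share of regions (%) against the highest FLAG summit (tags) for 3 classes of shared FLAG regions, with NanogWT as solid and NanogBiD as dashed lines. Right, share of shared FLAG regions with no BRG1 peak in either arm (%) by the lower FLAG summit of the arms (tags), with bars starting at 0 and 95% Wilson intervals; it goes from 21.3% at 10 to 14 tags to 0.121% at 30 or more, and is highest under 10 tags.

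The log2 ratio of FLAG height, NanogBiD over NanogWT, had a median of 0.00 over the 6741 regions (interval 0.00 to 0.00), with quartiles at -0.29 and 0.36. The median was 0.10 in the common BRG1 class and 0.38 in the NanogBiD BRG1 class. FLAG was at least 1.5-fold higher in NanogBiD at 888 regions (13.2%) and at least 1.5-fold lower at 787 (11.7%). Over all shared FLAG regions the shares were 21.9% higher and 8.46% lower. Because the rule used the FLAG and BRG1 peaks, nothing is read from this contrast. Peak score, which is -10 log10 of the caller's p-value, gave a median log2 ratio of -0.14 in place of 0.00, and neither is scaled to depth.

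The edge of the selection was well populated. Of the 6741 regions, 2173 (32.2%) had a lower FLAG score under 60, when the lists start at 50, and 1168 (17.3%) reached 100 in both arms. Just outside the rule lay 2141 regions with FLAG in both arms and a BRG1 peak in 1 arm scoring under 60. Their median FLAG height was 13 tags in each arm, and they carried H3K27ac at 27.1% in NanogWT and 32.4% in NanogBiD. Just inside it lay 213 regions with the edge of a BRG1 peak within 0.5 kb, where the FLAG medians were 14 tags and H3K27ac stood at 36.2% and 43.7%. Across all 6741 regions, 5.90% had a BRG1 peak of either arm within 1 kb and 45.2% within 10 kb. The median distance to the nearest BRG1 peak was 24.4 kb in NanogWT and 12.7 kb in NanogBiD.

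H3K27ac was less frequent at these regions than at shared FLAG regions with BRG1. A peak of this mark overlapped 1142 regions in NanogWT (16.9%, interval 16.1 to 17.9) and 1375 in NanogBiD (20.4%, 19.5 to 21.4). In the common BRG1 class the shares were 87.2% and 92.1%, and in the NanogBiD BRG1 class 24.8% and 52.7%. Regions without BRG1 that held FLAG in a single arm had shares of 17.2% in NanogWT and 8.91% in NanogBiD where FLAG was in NanogWT only, and of 3.66% and 8.87% where it was in NanogBiD only. In neither arm did 4849 of the 6741 regions (71.9%) hold the mark, while 625 (9.27%) held it in both. It was found in NanogBiD only at 750 regions (11.1%), against 16.2% of all shared FLAG regions, and in NanogWT only at 517 (7.67%), against 4.68%. Regions without BRG1 thus had a smaller share of NanogBiD-only and a larger share of NanogWT-only H3K27ac than shared FLAG regions at large. That comparison set includes the NanogBiD BRG1 class, which was chosen by a BRG1 peak in NanogBiD only. In that class the mark stood at 24.8% in NanogWT and 52.7% in NanogBiD. The contrast therefore need not hold against each class alone.

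The direction of the H3K27ac difference between the arms depended on the size of the lists. With the lists as deposited, the share was 3.46 percentage points higher in NanogBiD (2.42 to 4.49), and 59.2% of the regions marked in a single arm were marked in NanogBiD (56.5 to 61.9), on balance so on 17 chromosomes and the other way on 2. When the 35452 highest-scoring H3K27ac peaks were taken from each arm, the shares became 16.9% in NanogWT and 13.7% in NanogBiD, the difference turned to -3.23 points, and 39.9% of the single-arm regions were marked in NanogBiD (37.0 to 42.9), with NanogWT ahead on 20 chromosomes. The NanogBiD BRG1 class kept its direction under the same equal-sized lists, at 24.8% in NanogWT and 43.0% in NanogBiD. So did the common BRG1 class, at 87.2% and 88.4%.

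H3K4me1 was more frequent than H3K27ac and lower in NanogBiD. It overlapped 3088 regions in NanogWT (45.8%, 44.6 to 47.0) and 2380 in NanogBiD (35.3%, 34.2 to 36.5), a difference of -10.5 points (-11.8 to -9.23). Both arms had it at 1741 regions and neither at 3014 (44.7%). It was present in NanogWT only at 1347 regions of the 6741, against 13.4% of all shared FLAG regions, and in NanogBiD only at 639 (9.48%), against 9.41%. NanogWT-only regions outnumbered NanogBiD-only ones on 20 of 20 chromosomes. Most of this difference went with the longer NanogWT list. With 57156 peaks from each arm the shares were 37.2% and 35.3%, and the difference was -1.88 points (-3.12 to -0.653). With the lists as deposited, the common BRG1 class was also lower in NanogBiD, at 85.1% in NanogWT and 81.1% in NanogBiD, and the NanogBiD BRG1 class stood at 51.5% and 52.1%. In the NanogBiD BRG1 class the equal-sized lists gave 42.4% in NanogWT and 52.1% in NanogBiD, and in the common BRG1 class 78.3% and 81.1%. With lists of equal size, only the regions without BRG1 were lower in NanogBiD among the 3 classes compared. The 1427 regions with FLAG in both arms and BRG1 in NanogWT only were not compared. Regions with FLAG in a single arm and no BRG1 were not compared at equal list size either.

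**Figure D2:**
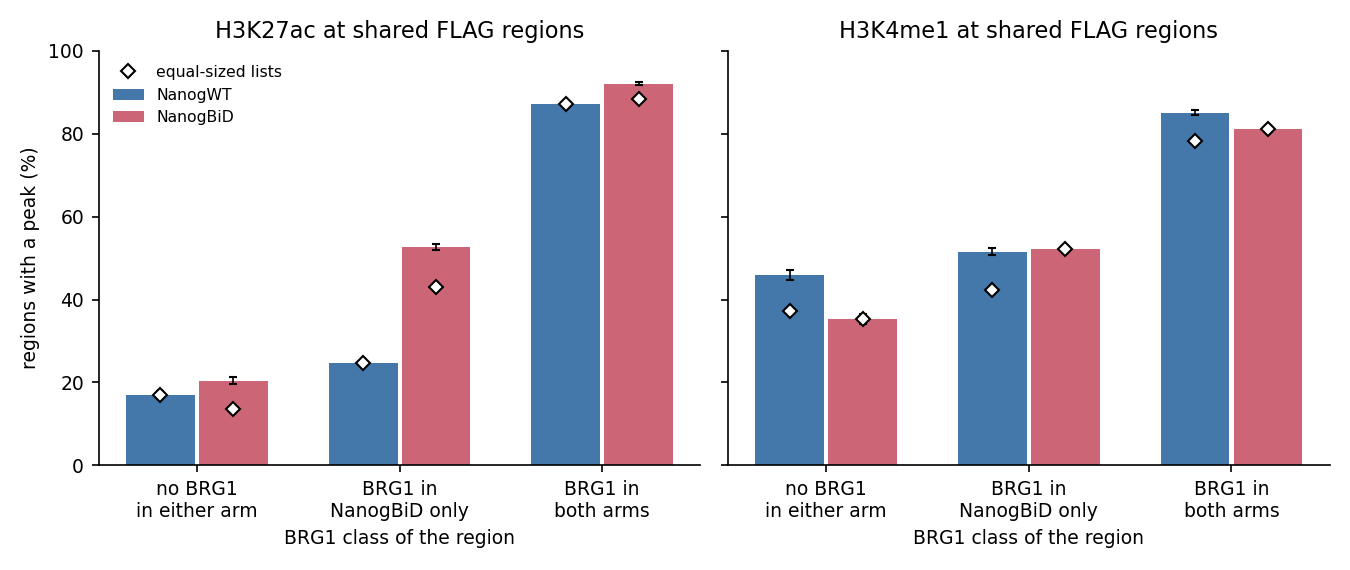
Share of shared FLAG regions with a peak of H3K27ac (left) or H3K4me1 (right), in %, by BRG1 class and arm, with bars from 0 and 95% Wilson intervals. Diamonds give the share when the same number of highest-scoring mark peaks is taken from each arm; at regions without BRG1 they move H3K27ac in NanogBiD from 20.4% to 13.7%, below NanogWT.

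Taken jointly, the marks left a large unmarked group. In NanogWT 3313 regions (49.1%) had neither mark, 2286 (33.9%) had H3K4me1 alone, 802 (11.9%) had both and 340 (5.04%) had H3K27ac alone. In NanogBiD the numbers were 3782 (56.1%), 1584 (23.5%), 796 (11.8%) and 579 (8.59%). No peak of either mark in either arm was found at 2556 regions (37.9%), against 1.32% of the common BRG1 class and 20.6% of the NanogBiD BRG1 class. Of the regions with FLAG in a single arm and no BRG1, 12129 of 17316 were unmarked where FLAG was in NanogBiD only and 4780 of 10682 (44.7%) where it was in NanogWT only. At the other end, 339 regions (5.03%) held both marks in both arms, compared with 66.4% of the common BRG1 class and 12.2% of the NanogBiD BRG1 class. Of the 3313 regions unmarked in NanogWT, 77.2% were also unmarked in NanogBiD, and of the 2286 with H3K4me1 alone in NanogWT, 39.9% were unmarked and 14.3% had both marks in NanogBiD.

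Where both arms held a mark, its height could be compared region by region. The median H3K27ac height was 14 tags in NanogWT and 13 in NanogBiD over 625 regions, with a median log2 ratio of 0.00 (-0.06 to 0.00). It was 0.22 in the NanogBiD BRG1 class and 0.08 in the common BRG1 class. For H3K4me1 the median heights were 15 and 13 tags over 1741 regions and the median log2 ratio was -0.22 (-0.22 to -0.21), against -0.13 and -0.18 in the other classes. These heights are not scaled to depth, so the ratios can be compared between classes and not with 0.

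The shares were also compared within bins of the lower of the 2 FLAG heights. These bins do not match FLAG in NanogBiD: at 10 to 14 tags the median log2 FLAG ratio was 0.00 without BRG1, 0.45 in the NanogBiD BRG1 class and 0.19 in the common BRG1 class. Among distal regions, those more than 2 kb from any annotated start site, with a lower FLAG height of 10 to 14 tags, H3K27ac was found at 16.8% of 3134 regions without BRG1 in NanogWT and at 19.1% in NanogBiD. The NanogBiD BRG1 class stood at 20.2% and 45.2%, and the common BRG1 class at 70.8% and 77.3%. At 20 to 29 tags, where 100 distal regions without BRG1 were left, the mark was at 21 of them in NanogWT and at 33 in NanogBiD, against 35.1% and 73.8% in the NanogBiD BRG1 class and 85.5% and 92.6% in the common BRG1 class. In NanogWT the regions without BRG1 were thus close to the NanogBiD BRG1 class at low FLAG height, while in NanogBiD, where their FLAG heights were unlike, the shares were far apart in each of the 4 bins under 30 tags. The part of FLAG height in that gap was not tested. H3K4me1 at 10 to 14 tags was at 46.0% in NanogWT and 35.2% in NanogBiD, against 50.1% and 49.6% in the NanogBiD BRG1 class.

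**Figure D3:**
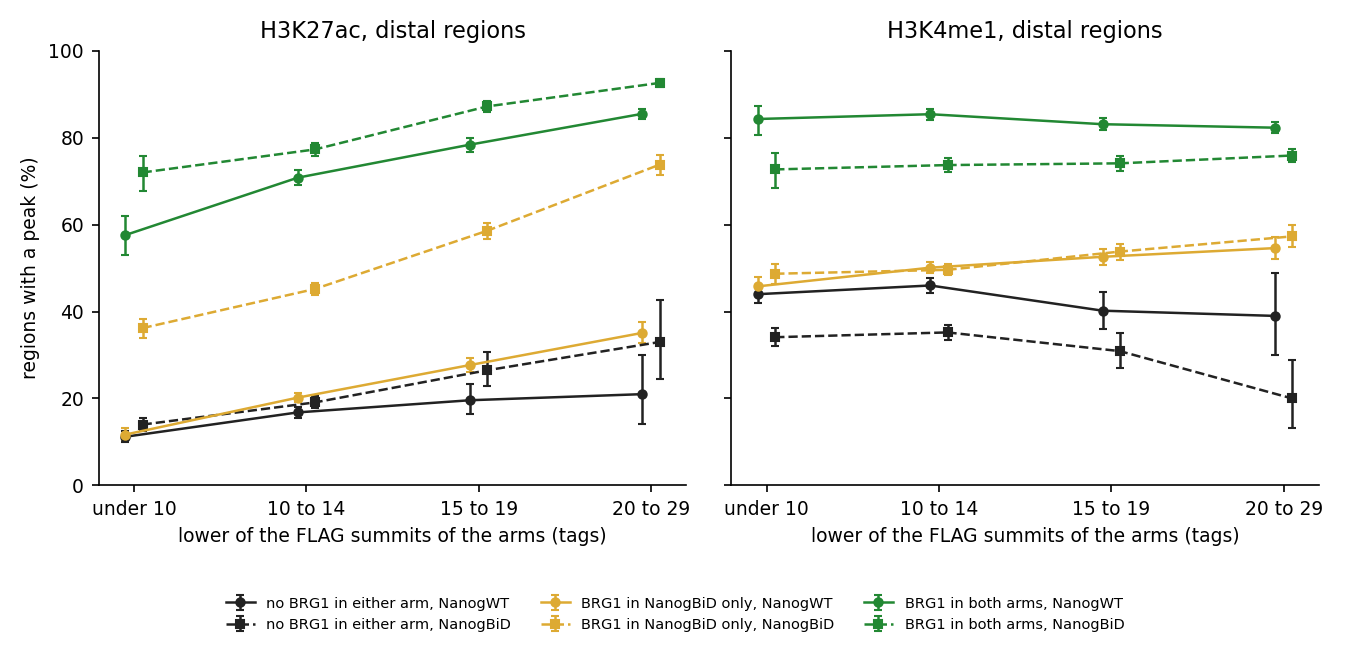
Share of distal shared FLAG regions with an H3K27ac (left) or H3K4me1 (right) peak, in %, by the lower FLAG summit of the arms (tags), BRG1 class (colour) and arm (solid NanogWT, dashed NanogBiD), with 95% Wilson intervals. H3K27ac in NanogBiD at 10 to 14 tags was at 19.1% without BRG1 and at 45.2% where BRG1 was found in NanogBiD only.

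FLAG height and H3K27ac differed in the same direction among these regions. The 517 regions with H3K27ac in NanogWT only had median FLAG heights of 14 tags in NanogWT and 11 in NanogBiD, a median log2 ratio of -0.26 (-0.32 to -0.18). The 750 regions with H3K27ac in NanogBiD only had medians of 12 and 13 tags and a ratio of 0.15 (0.12 to 0.18). Regions marked in both arms or in neither had a median ratio of 0.00. From the FLAG side, H3K27ac in NanogWT only was found at 16.9% of the 787 regions with FLAG at least 1.5-fold lower in NanogBiD and at 3.27% of the 888 with FLAG at least 1.5-fold higher. In NanogBiD only it was found at 7.24% and 14.9% of them. For H3K4me1 the median FLAG ratio was 0.14 at NanogBiD-only regions (0.11 to 0.18), 0.00 at NanogWT-only regions (-0.10 to 0.00) and at those marked in both arms, and 0.10 at those marked in neither (0.00 to 0.12), so NanogBiD-only regions were close to unmarked ones. All these regions share the same FLAG library and the same mark library in each arm.

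**Figure D4:**
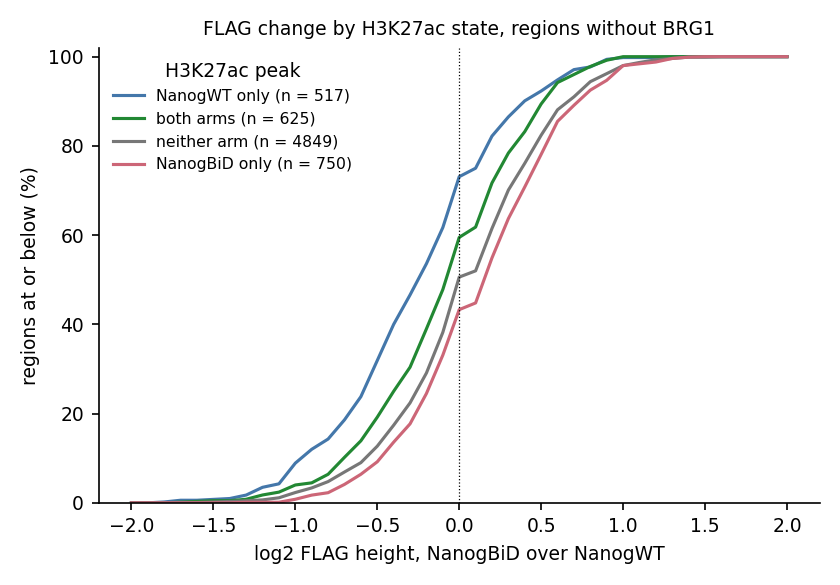
Cumulative share (%) of regions without BRG1 against the log2 ratio of FLAG height, NanogBiD over NanogWT, with 1 line for each H3K27ac state of the region (numbers in the legend). The line for H3K27ac in NanogWT only lies to the left, with a median of -0.26, and the one for NanogBiD only to the right, with a median of 0.15.

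Among the tallest regions at promoters was one at Rad18, which encodes a ubiquitin ligase of DNA damage tolerance. FLAG there reached 30 tags in NanogWT and 37 in NanogBiD without a mark, and the nearest BRG1 peaks lay 0.847 kb away in NanogWT and 0.279 kb in NanogBiD. The Fam192a region, at 30 tags in NanogWT and 27 in NanogBiD, held H3K27ac in NanogWT (27 tags) and not in NanogBiD. Both lie off the start site, with summits 2.96 kb from that of Rad18 and 1.65 kb from that of Fam192a.

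In the distal set, the region in an intron of Tgfbr3, which encodes the TGF-beta co-receptor betaglycan, had 40 FLAG tags in NanogWT and 34 in NanogBiD. It held H3K27ac in both arms, at 28 and 27 tags, and H3K4me1 in NanogWT only. Regions in introns of Nmnat2, an enzyme of NAD synthesis, at 38 and 30 tags, and of Ing2, a reader of methylated H3K4, at 31 and 29 tags, held no mark. The distance to BRG1 was nearly the same in the arms for both, at 3.94 and 3.96 kb for Nmnat2 and 1.54 and 1.55 kb for Ing2.

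Of the regions with H3K27ac in both arms, the next tallest lay in Dst, which encodes a cytoskeletal linker, and at Pogz, which encodes a zinc finger protein. At Dst the mark stood at 11 tags in NanogWT and 14 in NanogBiD, and at Pogz at 39 and 21. The tallest with H3K27ac in NanogBiD only were an intergenic region on chromosome 14 (34 tags of H3K27ac, FLAG 31 in NanogWT and 28 in NanogBiD), one in Stx8, a SNARE protein (21 tags), and one in Kif13b, a kinesin (13 tags). With H3K27ac in NanogWT only, Fam192a was followed by Lmntd1 at 15 tags and Amotl1, which encodes a binding partner of the Hippo effector YAP, at 17 tags. In the last of these FLAG was higher in NanogBiD, at 30 tags against 23. The chromosome 14 region lay 0.0540 kb from a BRG1 peak in NanogWT and 0.121 kb in NanogBiD, which shows how narrowly some regions met the rule.

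H3K4me1 in NanogBiD only was led by regions in 2610307P16Rik, near Dicer1 and at Gm29328, with 12, 18 and 12 tags of the mark. In NanogWT only it was led by the Tgfbr3 and Dst regions, at 18 and 13 tags, and by a region in Itpr1, a calcium channel of the endoplasmic reticulum, at 14 tags. The latter had 27 FLAG tags in each arm.

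The largest FLAG differences went both ways. In an intron of Cdh13, a cadherin without a cytoplasmic tail, FLAG was at 8 tags in NanogWT and 25 in NanogBiD, and regions at Gm11077 and in Cntn5 went from 7 tags to 20. None of these 3 held a mark. An intergenic region on chromosome 15 had 34 tags in NanogWT and 8 in NanogBiD, with H3K4me1 in NanogWT only (19 tags). One near Ankef1 had 33 and 9 without a mark. One at Gm44115 had 40 and 11, with H3K27ac (8 tags) and H3K4me1 (16 tags) in NanogWT only. So the 3 highest ratios had no mark peak in either arm, while 2 of the 3 lowest had marks in NanogWT that were not called in NanogBiD.

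Most of the regions lay away from promoters. By position, 936 (13.9%) overlapped a promoter, taken as 2 kb either side of an annotated start site, 44.5% had their summit in an intron, 2.39% in an exon and 39.2% between genes. In the common BRG1 class 49.8% were at promoters, and in the NanogBiD BRG1 class 14.7%. The median distance of the distal regions to a start site was 27.5 kb, against 22.1 kb in the common BRG1 class and 29.3 kb in the NanogBiD BRG1 class. Promoter regions held H3K27ac more often than distal ones, at 28.3% against 15.1% in NanogWT and 34.1% against 18.2% in NanogBiD. At promoters of the common BRG1 class the shares were 94.9% and 97.1%.

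Base composition was compared over all regions and over distal ones. The median GC content around the summit was 42.9%, against 42.5% in the NanogBiD BRG1 class and 50.5% in the common BRG1 class. A ratio of observed to expected CpG of at least 0.6, as in CpG islands, was reached by 1.97% of the regions without BRG1, by 34.5% of the common BRG1 class and by 2.29% of the NanogBiD BRG1 class. Even at promoters it was reached by 9.62% of the regions without BRG1 and by 66.2% of the common BRG1 class. At distal regions the gap was smaller, with a median GC content of 42.7% against 45.1% and a high CpG ratio at 0.741% against 2.88%. The regions were spread over all autosomes at 2.37 to 3.22 per Mb and were sparser on the X chromosome, at 0.930 per Mb. The X chromosome was also sparse in the common BRG1 class, with 2.28 per Mb against 6.57 to 12.2 on autosomes. The FLAG summits of the arms lay a median of 81.0 bp apart, and 56.9% of them within 100 bp.

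Motifs were counted on both strands within 50 bp of the NanogWT FLAG summit and, for comparison, in windows of the same length 1 kb downstream. AP-1 is the dimer of FOS and JUN proteins that is abundant in fibroblasts, and its site TGACTCA was found at 349 summits (5.18%, 4.67 to 5.73), against 1.82% of the windows 1 kb away. The octamer ATGCAAAT was at 132 summits (1.96% against 0.875%). TAATGG, a core of the NANOG homeodomain site, was at 405 (6.01% against 4.32%), and GGAATG, the site of the TEAD factors of the Hippo pathway, was at 570 (8.46% against 5.52%). The RUNX site TGTGGTT was at 3.69% against 2.21%, and the SOX sites ACAAAGG and ACAATGG together at 4.72% against 3.78%. The interval of the difference lay above 0 for each of these 6. The CTCF site was at 15 summits (0.223%) and at none of the distant windows. In the common BRG1 class it was at 0.231% of the summits. Promoter motifs were at the level of the distant windows, with the GC box GGGCGG at 1.47% against 1.23% and the ETS site CCGGAAG at 0.312% against 0.163%.

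At distal regions the common BRG1 class differed from the regions without BRG1 most in AP-1, while over all regions it differed most in the GC box (1.47% without BRG1 against 14.6%). At distal regions AP-1 was found at 5.31% of the summits without BRG1, at 6.99% in the NanogBiD BRG1 class and at 10.4% in the common BRG1 class. The difference from the common BRG1 class was -5.05 points (-5.85 to -4.23), with a lower share on 20 of 20 chromosomes. It was of like size within bins of the lower FLAG height, at -5.54 points under 10 tags and -5.11 at 10 to 14. The octamer stood at 116 of the 5805 distal regions without BRG1 and at 2.77% in the NanogBiD BRG1 class, and the NANOG core at 6.17% and 7.88%, with 5.32% in the common BRG1 class (difference 0.848 points, 0.115 to 1.61). The octamer difference from the NanogBiD BRG1 class was 0.144 points under 10 tags (-0.734 to 1.01), -0.775 at 10 to 14 (-1.39 to -0.112) and -0.435 at 15 to 19 (-1.76 to 1.48), so it did not hold in every bin. The NANOG core differed from the NanogBiD BRG1 class by -0.857 points at 10 to 14 tags (-1.90 to 0.237), an interval that includes 0. TEAD was at 8.77% without BRG1, at 7.73% in the NanogBiD BRG1 class (difference 1.04 points, 0.186 to 1.93) and at 7.96% in the common BRG1 class (0.812, -0.0597 to 1.71). By height, the TEAD difference from the NanogBiD BRG1 class was 2.35 points under 10 tags (0.695 to 4.0) and 1.04 at 10 to 14 (-0.125 to 2.26). RUNX, at 3.84%, differed from both classes by less than counting error over all distal regions. At 10 to 14 tags RUNX was at 4.05% without BRG1 against 2.55% in the common BRG1 class (interval of the difference 0.599 to 2.41 points) and 3.13% in the NanogBiD BRG1 class (0.119 to 1.78). Under 10 tags the difference from the latter was -1.07 points (-2.28 to 0.116), an interval that includes 0. With the NanogBiD summit the AP-1 share of all 6741 regions was 6.19% and that of the NANOG core 7.14%.

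**Figure D5:**
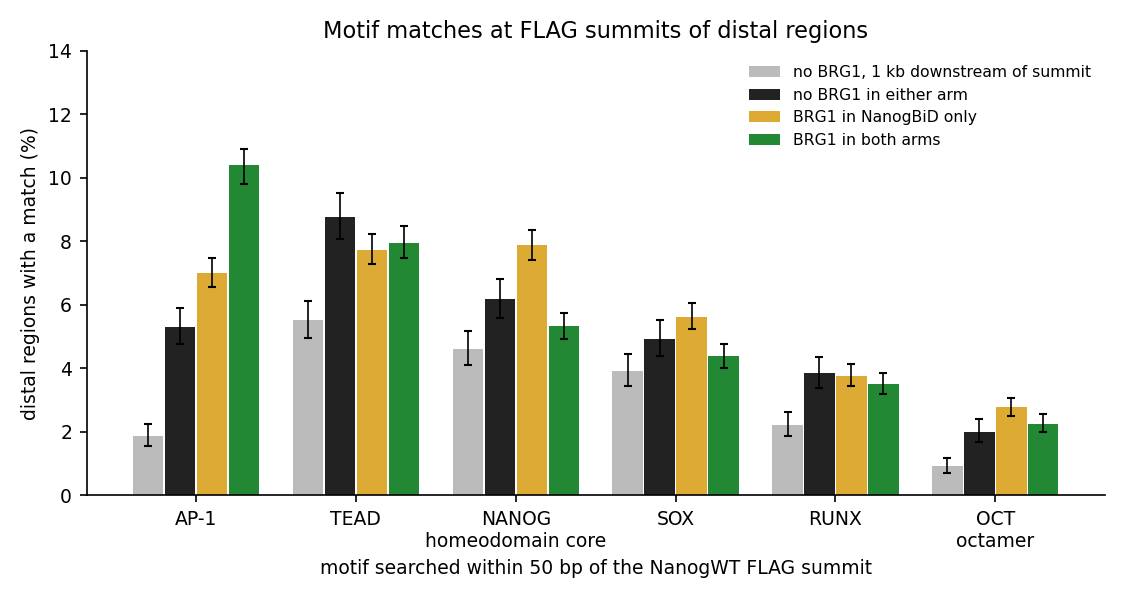
Share of distal shared FLAG regions (%) with a match to each motif within 50 bp of the NanogWT FLAG summit, by BRG1 class, and for regions without BRG1 also in windows 1 kb downstream, with bars from 0 and 95% Wilson intervals. AP-1 goes from 5.31% without BRG1 to 10.4% with BRG1 in both arms.

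The marks were also set out by motif. Distal regions with AP-1 held H3K27ac in NanogBiD only at 9.09% (28 of 308) and those without at 604 of 5497, and the octamer regions at 13.8% (16 of 116) against 10.8%. The intervals of each pair overlap. H3K4me1 in NanogWT only was at 12.1% of the octamer regions (7.33 to 19.2) and at 20.3% of the others (19.2 to 21.3). H3K4me1 in both arms was at 15.7% of the distal regions with a SOX site (45 of 286) and at 1382 of 5519 of those without. The octamer intervals meet at their ends, and both comparisons are among many that were looked at.

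Such regions were rare at promoters of any kind of gene. Over all protein-coding genes, 579 of 21911 (2.64%) had one, and 18.4% had one within the gene or 20 kb of it. The lists compared hold 205 genes in all, and their promoter counts of 0 to 2 genes a list are too small to be set apart from that share. Of 26 pluripotency genes 1 had one, Dppa3, a germ cell and early embryo factor. Its region, 1.80 kb from the start site, had 13 FLAG tags in NanogWT and 11 in NanogBiD. It held H3K27ac in NanogBiD only (11 tags) and H3K4me1 in both arms (16 and 15 tags), with the nearest BRG1 peak 15.3 kb away in NanogWT and 15.2 kb in NanogBiD. No other pluripotency gene had a region without BRG1 within 20 kb.

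None of 25 fibroblast and mesenchymal genes had one at a promoter, and 6 had one within the gene or 20 kb. These lay at Col5a1, a fibrillar collagen, at Postn, a matrix protein, at Pdgfra, a growth factor receptor, and at Twist1, Zeb2 and Prrx1, transcription factors of mesenchymal cells. None of the 6 regions held H3K27ac in either arm, and only the one at Pdgfra held H3K4me1, in NanogBiD (12 tags). Of all 6741 regions, 4849 held H3K27ac in neither arm and 3014 held H3K4me1 in neither. A set of 6 is too small to be set apart from those shares. FLAG at the Twist1 region was 19 tags in NanogWT and 9 in NanogBiD, at Postn 16 and 10, at Prrx1 14 and 12 and at Pdgfra 10 and 9, while at Zeb2 it was 10 and 17 and at Col5a1 9 and 15.

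In the BAF subunit list 2 of 24 genes had a region at a promoter. At Smarca4, which encodes BRG1 itself, it lay at the start of an internal transcript, 19.5 kb from the 5′ end of the gene, and held H3K27ac (12 tags in NanogWT and 10 in NanogBiD) and H3K4me1 (19 and 17) in both arms. At Brd9, a subunit of the non-canonical complex, it lay 7.82 kb from the 5′ end, with 17 and 14 FLAG tags and no mark. In all 10 of the 24 BAF genes (41.7%, interval 24.5 to 61.2) had a region in the gene or within 20 kb, against 18.4% of all protein-coding genes. Their median length was 31.2 kb against 17.4 kb, and 95.8% of them had any shared FLAG region there, against 74.4%. The part of these differences in the count was not tested. Among these regions was the one with the highest FLAG summit in NanogWT, in an intron of Smarca2, the gene of the alternative ATPase BRM. It was chosen here after its values were seen. FLAG there reached 60 tags in NanogWT and 18 in NanogBiD, with H3K4me1 in both arms and no H3K27ac.

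The remaining promoter cases were Runx2, an osteoblast factor (1 of 4 RUNX genes), Grhl2, an epithelial factor (1 of 20 epithelial genes), and Smad4, the common mediator of TGF-beta and BMP signals (1 of 24 genes of that list). The Runx2 region covered the 5′ end of the gene, at 0.215 kb, and held both marks in both arms. The Grhl2 region, at an internal start far inside the gene, went from 9 FLAG tags in NanogWT to 15 in NanogBiD and held both marks in NanogBiD only, at 12 tags each. The Smad4 region, also at an internal start, had 9 FLAG tags in each arm and H3K27ac in NanogBiD only (10 tags). No gene of the AP-1 (15), TEAD and Hippo (17), germ layer (20), cell cycle (18) and housekeeping (12) lists had one at a promoter. Within the gene or 20 kb of it, where 18.4% of all protein-coding genes had one, 7 of 15 AP-1 genes did (46.7%, interval 24.8 to 69.9). The AP-1 genes had a median length of 11.1 kb, and 100% of them had any shared FLAG region there. The other counts were 4 of 17 TEAD and Hippo genes, 3 of 20 epithelial genes, 3 of 24 TGF-beta and BMP genes, 2 of 20 germ layer genes, 2 of 4 RUNX genes, 3 of 18 cell cycle genes and 2 of 12 housekeeping genes. These lists are short, and gene length differs between them, with medians from 4.57 kb in the housekeeping list to 141 kb in the RUNX list against 17.4 kb over all genes.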

How the data were processed

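The deposited files were peak and summit lists, 1 pair per group. Per the methods, the authors trimmed reads with Trim Galore 0.6.4, mapped them to mm10 with Bowtie2 2.4.5, removed repetitive, low-quality and mitochondrial reads with SAMtools 1.16.1, merged replicates and called peaks with MACS 1.4.2. No control library and no number of merged replicates is named for these lists, and the labels and the methods give different kits and cell numbers. The deposited score of a peak is -10 log10 of its p-value, and the deposited summit signal is a pileup of tags, neither scaled to depth.

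Regions were merged and classified in Python 3.11.15 (pandas 2.3.3, scipy 1.17.1). A mark was counted when a peak overlapped by at least 1 bp. Annotation was GENCODE M21 on GRCm38, the build of the files. Intervals are 95%: Wilson for shares, Newcombe for differences between classes and motif windows, a paired normal interval for the arms, and order statistics for medians. Named regions are the 3 tallest, by the lower FLAG height, at promoters, at distal sites, with H3K27ac in both or a single arm, with H3K4me1 in a single arm and with an octamer or CTCF match at both summits, and the 3 with the highest and the lowest FLAG ratio. Named genes are listed genes with a region at a promoter and, for pluripotency and fibroblast genes, within 20 kb. Alternatives were stricter peaks, other merging and overlap rules, other promoter and motif windows and, added after seeing the data, lists of equal size. The code was tested on simulated lists. The regions, gene lists (11 lists, 205 genes) and motifs were chosen with earlier results of these data known. In all 16 motifs were searched. Windows on chromosome 18 or over an annotated UTR were not printed. A region that the naming rule picks is not reported here.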

Additional observations from a re-analysis of the deposited data

How the results depend on the processing

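The H3K27ac difference between the arms turned from 3.46 to -3.23 percentage points with equal-sized H3K27ac lists, an alternative chosen after seeing the data, in which the NanogBiD share was 13.7%. Equal-sized H3K4me1 lists moved the NanogWT share to 37.2% and the difference to -1.88. With equal-sized BRG1 lists, 13055 regions met the rule, with H3K27ac at 20.2% in NanogWT and 28.7% in NanogBiD (difference 8.52), H3K4me1 at 47.5% and 39.9% (-7.62), promoters at 15% and a median log2 FLAG ratio of 0.13. Peaks with a score of at least 100 in all lists gave H3K27ac at 17.9% and 19.3% (1.39), H3K4me1 at 29.4% and 17.2% (-12.2) and promoters at 16.1%. The 20000 highest-scoring FLAG peaks of each arm left 56 regions, with H3K27ac at 8.93% and 26.8% (17.9), H3K4me1 at 58.9% and 51.8% (-7.14) and AP-1 at 1.79%. FLAG heights of at least 15 left 723, with H3K27ac at 21% and 28.8% (7.75), H3K4me1 at 39.8% and 30.6%, promoters at 16.0% and AP-1 at 3.87%. Mark peaks within 500 bp gave H3K27ac at 18.2% and 21.8% and H3K4me1 at 48.7% and 37.1%. FLAG peaks overlapping by 50% put H3K27ac in NanogWT at 15.9%. Leaving out regions with BRG1 within 1 kb gave 12.9% at promoters, and promoters of 1 kb gave 9.46%. AP-1 was at 2.4% within 25 bp, 10.4% within 100 bp and 6.19% at the NanogBiD summit. Score in place of height gave a median log2 ratio of -0.14. Another 50 values moved by less than their counting interval, or by less than 1.5 times for counts of regions. The cause of the shifts was not tested. Depth is unknown, so an absent peak cannot be told apart from too few reads. No paired analysis was possible because the lists hold merged replicates only, and no replicate could be left out.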
